A study of Mus musculus with 12 samples.

Results

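Guanylate-binding proteins (GBPs) and immunity-related GTPases (IRGs) are GTP-hydrolysing proteins that cells make in response to interferon. The transcripts of 10 of them were read from the count table of 24100 genes by gene symbol: Gbp2, Gbp3, Gbp5, Gbp6, Gbp7, Irgm1, Irgm2, Igtp, Iigp1 and Tgtp1. All 10 were in the table and all 10 passed the filter on low counts, as did 14263 genes in all. RNA was sequenced from mouse embryonic fibroblasts (MEFs) of 2 lines isolated from different mothers and immortalized with SV40. RTF2-deficient MEFs were Rtf2-/lox, with 1 null and 1 floxed Rtf2 allele, and WT MEFs were their Rtf2+/+ littermates. Every culture, WT included, received Cre recombinase from a retrovirus and was harvested 72 hrs later. No interferon or other immune stimulus is named for any group. Each of the 4 groups (WT line 1, RTF2-deficient line 1, WT line 2 and RTF2-deficient line 2) had 3 libraries that the study calls technical replicates, so p-values measure the spread between libraries of a group and not that between embryos.

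GBPs and IRGs are among the genes most strongly induced by interferon-gamma, and type I interferons induce many of them as well. GBPs gather on vacuoles and membranes that hold intracellular pathogens, where they open them to other defences and to sensing by inflammasomes. IRGs divide into effectors, such as Iigp1 (also called Irga6) and Tgtp1 (Irgb6), which load onto the vacuole of parasites such as Toxoplasma, and the regulators Irgm1, Irgm2 and Igtp (Irgm3), which sit on the cell's own membranes and keep the effectors inactive there. Interferon-gamma signals through Ifngr1 and Ifngr2 to the kinases Jak1 and Jak2 and on to the GAS motif, whereas type I interferons signal through Ifnar1, Ifnar2, Jak1 and Tyk2 to a complex with STAT2 and IRF9 that binds the ISRE motif.

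The start of most of these genes carries letters of the kind that these factors read. Promoter windows of 300 bases, from 250 before to 50 after the transcription start, were taken from RefSeq's GRCm38.p6 entries, which held 8 of the 10 genes. Gbp6 and Iigp1 had no entry. An ISRE-type repeat, GAAANNGAAA on either strand, was found in 8 of the 8 genes, against 3.99% of 27025 genes in the whole table. A GAS-type palindrome, TTCNNNGAA, was found in 5 of the 8, against 9.55% of all genes. The next lines show 120 bases that end just before the start for the 3 genes in which both motifs lay side by side (Irgm2, Igtp and Tgtp1), for Irgm1, whose level stood apart from the others, and for Gbp2 and Gbp7 as a GBP without and a GBP with a GAS-type match. Each is written 5′ to 3′ along the gene's strand with the matched letters in capitals.
Irgm2, chr11:58214857-58214976, plus strand: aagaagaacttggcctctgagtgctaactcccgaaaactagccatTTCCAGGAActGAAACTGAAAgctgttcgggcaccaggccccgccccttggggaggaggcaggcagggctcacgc
Igtp, chr11:58199436-58199555, plus strand: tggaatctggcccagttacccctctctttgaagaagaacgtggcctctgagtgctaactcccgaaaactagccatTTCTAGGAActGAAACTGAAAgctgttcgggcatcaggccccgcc
Tgtp1, chr11:48992247-48992366, minus strand: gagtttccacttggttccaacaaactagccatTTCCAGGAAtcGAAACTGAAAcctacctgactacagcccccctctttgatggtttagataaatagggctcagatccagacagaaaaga
Irgm1, chr11:48871421-48871540, minus strand: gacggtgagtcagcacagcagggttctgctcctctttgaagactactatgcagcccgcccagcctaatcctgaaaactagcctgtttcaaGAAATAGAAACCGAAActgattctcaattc
Gbp2, chr3:142620543-142620662, plus strand: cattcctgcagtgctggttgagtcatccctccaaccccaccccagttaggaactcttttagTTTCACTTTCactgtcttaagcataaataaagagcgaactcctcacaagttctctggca
Gbp7, chr3:142530216-142530335, plus strand: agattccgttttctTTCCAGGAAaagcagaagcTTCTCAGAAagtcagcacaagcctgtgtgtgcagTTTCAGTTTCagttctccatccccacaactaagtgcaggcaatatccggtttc

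In Irgm2, Igtp and Tgtp1 the GAS-type palindrome came first and the repeat GAAACTGAAA followed after a short spacer, with the first base of the repeat at -64, -34 and -77 from the start. In Irgm1 a pair of overlapping repeats began at -30 and -24, and no GAS-type match was present in the window. Gbp3 likewise had an overlapping pair, at -45 and -39, and no GAS-type match. In Gbp2, Gbp3, Gbp5 and Gbp7 the repeat was read on the opposite strand. Gbp5 and Gbp7 had 2 palindromes each. A match describes letters in the window, and binding was not measured here.

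**Figure D1:**
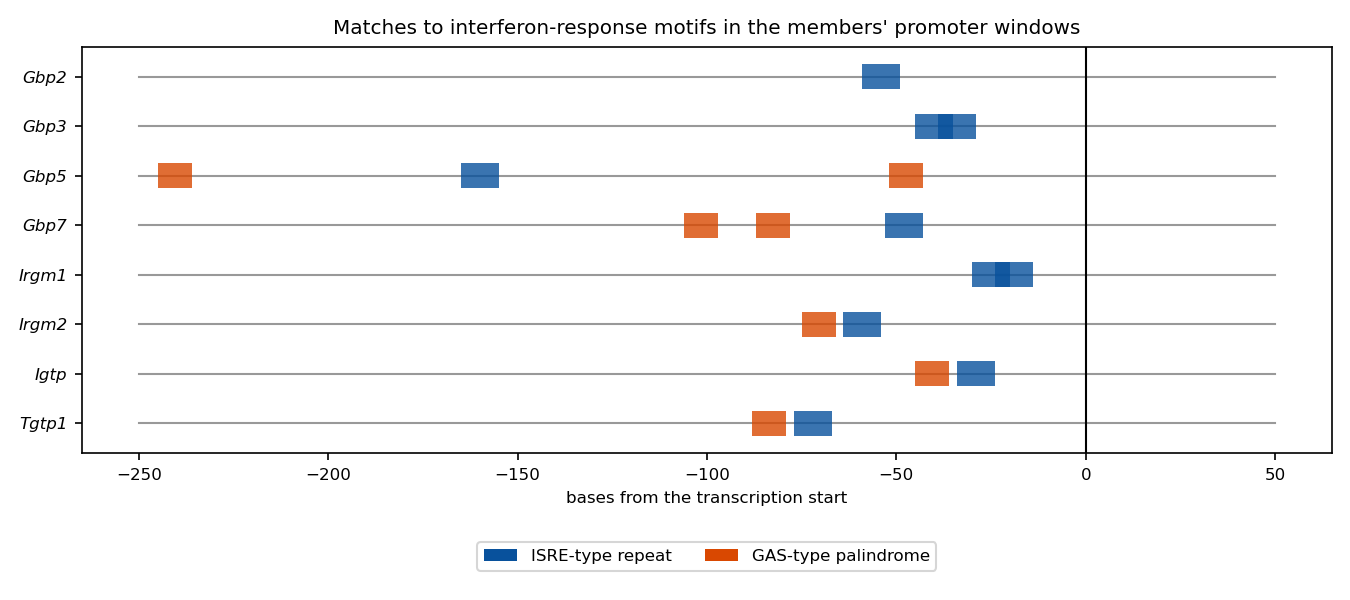
Positions of the ISRE-type repeat (blue) and the GAS-type palindrome (orange) in the promoter windows of 8 genes, in bases from the transcription start. Irgm2, Igtp and Tgtp1 share the order of palindrome then repeat, while Gbp2, Gbp3 and Irgm1 hold the repeat only.

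Rtf2, the deleted gene, had 49.7 CPM (counts per 1e+06 counts, normalized by TMM) on average in WT libraries and 6.14 CPM in RTF2-deficient ones (log2 fold change -3.01, SE 0.0567, adjusted p = 2.45e-11 in edgeR's quasi-likelihood test), and it did not overlap between genotypes. Library totals lay between 39360167 and 44695002 counts. Fibroblast markers summed to 19300 to 32100 CPM in all 12 libraries. The macrophage markers summed to 5.82 to 6.95 CPM in WT line 1, 4.98 to 5.8 in RTF2-deficient line 1, 10.8 to 14.2 in WT line 2 and 8.23 to 9.55 in RTF2-deficient line 2, with 5 of the 9 below 1 CPM everywhere. T and NK cell markers, the cells that make interferon-gamma, summed to at most 0.847 CPM, with 7 of 7 below 1 CPM and 2 at 0 in all libraries. WT line 2 differed in sex from the rest: Ddx3y, on the Y chromosome, had 91.8 to 107 CPM there and at most 0.195 CPM in the other 9 libraries, while Xist had at most 0.132 CPM there and at least 103 CPM elsewhere. In each comparison with WT line 2, sex and the condition compared cannot be told apart. In bulk RNA, fewer cells that make a transcript and less of it per cell cannot be told apart either.

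The members were high in the same few libraries, and these libraries did not follow genotype. WT line 2 replicate 1 was the highest library for 10 of the 10 genes and RTF2-deficient line 2 replicate 3 the second for 10 of 10. WT line 2 replicate 3 was the third for 9 of 10, Irgm1 being the exception. Summed over the 10 genes, transcripts reached 2350 CPM in WT line 2 replicate 1, 1060 CPM in RTF2-deficient line 2 replicate 3 and 585 CPM in WT line 2 replicate 3, against 240 to 364 CPM in the other 9 libraries. Within WT line 2 alone the sum ran from 244 to 2350 CPM and within RTF2-deficient line 2 from 246 to 1060 CPM. Leaving out WT line 2 replicate 1 or RTF2-deficient line 2 replicate 3 changed several values given with the comparisons.

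Gbp2, Gbp3, Gbp5 and Gbp7 lie in 1 block of chromosome 3 (GRCm38), with Gbp5 at chr3:142496934-142522344, Gbp7 at chr3:142530336-142550151, Gbp3 at chr3:142560016-142573213 and Gbp2 at chr3:142620663-142638008. Gbp2, a GBP that carries a lipid anchor and coats pathogen vacuoles, was the most abundant GBP per length in most libraries. Its level was 20.3, 8.12 and 7.45 CPM in WT line 1, 13, 6.92 and 6.61 in RTF2-deficient line 1, 267, 23.1 and 62.5 in WT line 2 and 7.84, 10.3 and 81 in RTF2-deficient line 2 (replicates 1, 2 and 3). The 3 WT line 2 libraries lay above the 3 WT line 1 libraries, whereas the genotypes overlapped in both lines.

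Gbp3 had the widest range of the GBPs that were counted in every library, from 37 counts in RTF2-deficient line 1 replicate 2 to 19277 counts in WT line 2 replicate 1. It measured 13.1, 1.61 and 2.17 CPM in WT line 1 and 3.51, 0.907 and 1.32 in RTF2-deficient line 1. In WT line 2 it measured 419, 12.4 and 66.9 CPM and in RTF2-deficient line 2 2.14, 5.75 and 119. In WT line 2 replicate 1 it was the GBP with the highest level per length, 137 RPKM (CPM per kilobase of exon), against 106 RPKM for Gbp2.

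Gbp7, a GBP tied to vacuole defence and to oxidative killing, measured 12.3, 3.42 and 3.09 CPM in WT line 1, 4.35, 2.7 and 2.39 in RTF2-deficient line 1, 199, 14 and 46.9 in WT line 2 and 3.7, 8.8 and 70.1 in RTF2-deficient line 2. Here too WT line 2 lay above WT line 1 without overlap. Of the 75-base stretches of its exons, 11.3% also occur in another gene, most of them in the pseudogene Gm43802.

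Gbp5, which is known for promoting inflammasome assembly, was scarce outside the high libraries. It measured 0.263, 0.223 and 0.338 CPM in WT line 1, 0.215, 0.221 and 0.195 in RTF2-deficient line 1, 11.4, 0.838 and 1.2 in WT line 2 and 0.361, 0.308 and 3.3 in RTF2-deficient line 2. In the 6 line 1 libraries these values rest on 8 to 14 counts. Its RTF2-deficient line 1 libraries all lay below those of WT line 1, which held for 1 of the 10 members and for 11.3% of all tested genes.

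Gbp6 (chr5:105270702-105295871) measured 0.263, 0 and 1.52 CPM in WT line 1, 0.119, 0.0245 and 0.0975 in RTF2-deficient line 1, 37.5, 0.816 and 4.56 in WT line 2 and 0, 0.257 and 7.26 in RTF2-deficient line 2. A count of 0 in the shallowest library allows up to 0.0762 CPM, by counting error alone. Its value is uncertain in another way, since 86% of its 75-base stretches also occur in the neighbouring annotation Gm43302 and 51.7% in Gbp10, so reads of these genes could have been assigned to one another.

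Irgm1 (chr11:48865245-48871420), the regulator needed for control of several bacteria and for autophagy of damaged membranes, stood apart from the other 9. It measured 270, 243 and 213 CPM in WT line 1, 225, 284 and 239 in RTF2-deficient line 1, 654, 144 and 245 in WT line 2 and 218, 247 and 529 in RTF2-deficient line 2. Its highest library exceeded its lowest by 4.55-fold, against 40.5-fold for Gbp2, the least variable of the others. With a median of 106 RPKM over the 12 libraries it was also the highest member per length, ahead of Gbp2 at 4.64 and Igtp at 2.77 RPKM. It made up 92.8% of the summed member CPM in RTF2-deficient line 1 replicate 2 but 27.8% in WT line 2 replicate 1, where the other 9 genes were high.

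Irgm2 (chr11:58214977-58222783) and Igtp (chr11:58199556-58207592), the other two regulators, are neighbours on chromosome 11 and share 162 exon bases. Irgm2 measured 22.9, 4.63 and 5.07 CPM in WT line 1, 6.93, 3.83 and 3.41 in RTF2-deficient line 1, 205, 26.6 and 76.6 in WT line 2 and 5.99, 11.4 and 85.9 in RTF2-deficient line 2. Igtp measured 11.8, 2.4 and 2.68 CPM in WT line 1, 4.35, 2.08 and 1.58 in RTF2-deficient line 1, 202, 15.4 and 50.4 in WT line 2 and 2.33, 6.85 and 66.2 in RTF2-deficient line 2. Both had all WT line 2 libraries above all WT line 1 libraries, and both had their highest line 1 value in WT line 1 replicate 1.

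Tgtp1 (chr11:48985329-48992246), an effector, measured 11.6, 6.34 and 4.41 CPM in WT line 1, 3.96, 5.35 and 3.71 in RTF2-deficient line 1, 182, 4.37 and 14.8 in WT line 2 and 4.52, 8.16 and 75.8 in RTF2-deficient line 2. WT line 2 replicate 2, at 4.37 CPM, was barely below the lowest WT line 1 library, at 4.41 CPM, so the WT groups overlapped. Tgtp1 shares 74.6% of its 75-base stretches with its near copy Tgtp2, and the split of reads between them is uncertain.

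Iigp1, the effector that disrupts parasite vacuoles, lies on chromosome 18 and shares no 75-base stretch with another gene. It measured 1.29, 0.149 and 1.13 CPM in WT line 1, 0.31, 0.0245 and 0.171 in RTF2-deficient line 1, 173, 2.71 and 16.2 in WT line 2 and 0.265, 0.693 and 24 in RTF2-deficient line 2. Its count ran from 1 in RTF2-deficient line 1 replicate 2 to 7951 in WT line 2 replicate 1. The WT line 2 libraries lay above those of WT line 1, and the RTF2-deficient groups of the 2 lines overlapped.

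**Figure D2:**
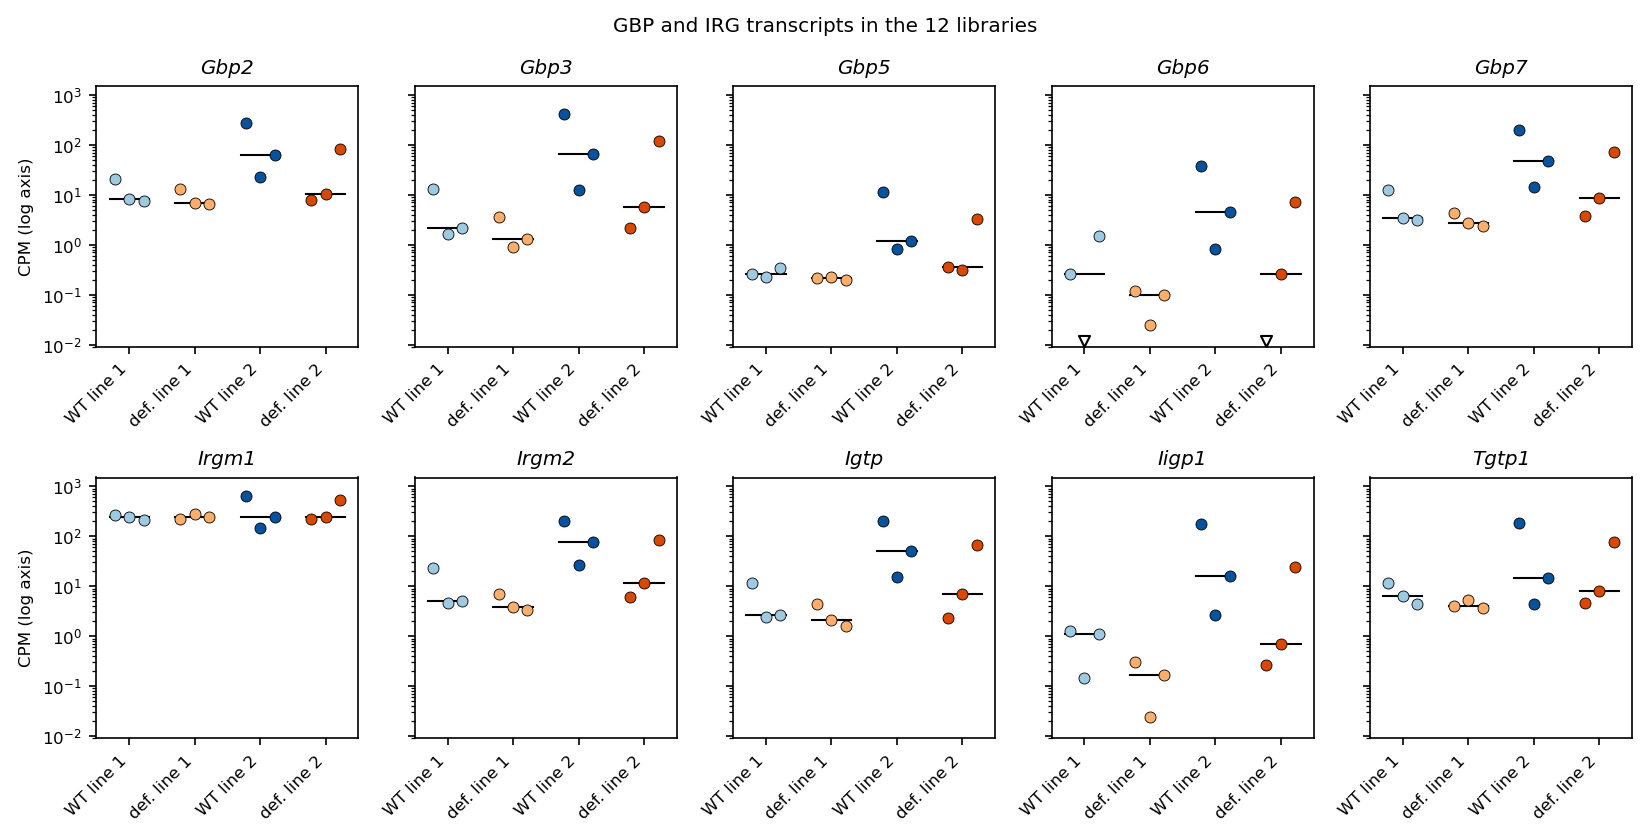
CPM on a log axis of each of the 10 genes in the 12 libraries, by group (def., RTF2-deficient), with points in the order of replicates 1, 2 and 3 and a bar at the group median. Open triangles mark counts of 0. WT line 2 replicate 1 and RTF2-deficient line 2 replicate 3 are the 2 highest points in every panel, and Irgm1 varies least.

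Ordered by the median RPKM over the 12 libraries, Irgm1 (106) was followed by Gbp2 (4.64), Igtp (2.77), Irgm2 (2.49), Tgtp1 (2.07), Gbp3 (1.52), Gbp7 (1.17), Iigp1 (0.292), Gbp5 (0.106) and Gbp6 (0.0997). Compared within libraries, Irgm1 was above Gbp2 in 12 of 12, by at least 2.67-fold, although their ranges over the libraries overlapped (62.3 to 284 and 2.63 to 106 RPKM). Gbp7 was above Iigp1 in 11 of 12, with a mean log2 ratio of 1.98 (SD 1.43 over the libraries), and Gbp2 above Igtp in 10 of 12, with 0.78 (SD 0.66). For the other 6 neighbouring pairs the mean log2 ratio, -0.03 to 1.17, was smaller than its SD. No test was run on this order. The SD of log2 CPM within groups was 0.66 for Irgm1 and 1.36 to 2.63 for the other 9, against a median of 0.18 over all tested genes and 0.08 for Rtf2. Only Irgm1 lay below the 99th percentile of this measure, at the 94.1 percentile.

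The members' patterns over the 12 libraries were alike in most genes, with Irgm1 furthest from the rest. The Pearson correlation of a gene's log2 CPM with the mean of the other 9 was 0.905 to 0.984 for 9 genes and 0.713 for Irgm1. Spearman's rho was 0.329 for Irgm1, 0.671 for Tgtp1 and 0.839 to 0.986 for the others. These are descriptions over 12 libraries, of which a few high ones carry most of the spread. The 8 other genes most like the mean of the 10 were Parp12 (0.994), Tor3a (0.992), Myd88 (0.989), Adar (0.989), Herc6 (0.988), Gm6548 (0.987), Shisa5 (0.986) and Tap1 (0.986). Adar edits double-stranded RNA, Myd88 is the adaptor of Toll-like receptors and Tap1 moves peptides to MHC class I. In all, 324 tested genes (2.27%) had a correlation above 0.9.

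Among the ligands, Ifng, the gene of interferon-gamma, had 0 counts in all 12 libraries, each with an upper limit of 3 counts. Ifnb1, the gene of interferon-beta, had 69 counts in WT line 2 replicate 1, 6 in WT line 2 replicate 3, 5 in RTF2-deficient line 2 replicate 3, 2 in RTF2-deficient line 2 replicate 2, 1 in RTF2-deficient line 1 replicate 1 and 0 in the other 7 libraries. Ifna4 had 13, 3 and 6 counts in WT line 2 replicates 1 and 3 and RTF2-deficient line 2 replicate 3, and none elsewhere. The libraries with counts of both ligands were the 3 in which the members were highest. None of the 8 ligand genes listed passed the filter, so none was tested.

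The receptors and the kinases Jak1 and Jak2 varied at most 1.88-fold over the same libraries, in Ifngr2. Ifngr1 ranged from 51.9 to 64.7 CPM, Ifngr2 from 72.1 to 135, Ifnar1 from 86.6 to 110, Ifnar2 from 32.4 to 39.3, Jak1 from 278 to 351 and Jak2 from 39.6 to 55.7 CPM. Ifngr2 was lowest in the 3 WT line 2 libraries, at 72.1, 82.9 and 83.7 CPM, and WT line 2 was lower than WT line 1 with a log2 fold change of -0.65 (SE 0.0914, adjusted p = 0.000839 in edgeR's test), which is short of the fold threshold for a call. So was its higher level in RTF2-deficient than in WT line 2 (0.51, adjusted p = 0.00509). Correlations of these receptors and kinases with the mean of the members ran from -0.809 (Ifngr2) to 0.646 (Jak2).

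Tyk2, the kinase of the type I interferon receptor, was the one gene of this list called between genotypes. It measured 22.6, 23.1 and 21.5 CPM in WT line 1, 10.7, 9.39 and 9.26 in RTF2-deficient line 1, 29.9, 24 and 25.2 in WT line 2 and 7.43, 8.47 and 12.1 in RTF2-deficient line 2. The genotypes did not overlap in either line. Tyk2 fell in RTF2-deficient MEFs by 1.34 on the log2 scale across both lines (SE 0.119, adjusted p = 2.92e-05 in edgeR's test), by 1.19 in line 1 (adjusted p = 0.00304) and by 1.49 in line 2 (adjusted p = 0.000335). With the 3 libraries of each group summed, which leaves 4 samples, the adjusted p across both lines was 0.102 and no gene was called.

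The transcription factors moved with the members. Stat2 reached 330 CPM in WT line 2 replicate 1, 152 in RTF2-deficient line 2 replicate 3 and 136 in WT line 2 replicate 3, from a lowest value of 16.9 CPM. Irf9 ranged from 16.3 to 148 CPM and Irf1, which is induced early by interferon-gamma, from 19.5 to 67.3. Their correlation with the mean of the 10 members was 0.981 for Stat2, 0.934 for Irf9 and 0.887 for Irf1. The inhibitor Usp18, which shields the type I receptor, ranged from 0.54 to 353 CPM, and Socs1, which blocks JAK kinases, from 1.61 to 8.19 CPM. Their correlations with the mean of the members were 0.935 and 0.949, while those of the other 5 inhibitors listed ran from -0.628 (Ptpn11) to 0.742 (Pias1). None of Stat2, Irf1, Irf9, Socs1 and Usp18 was called between genotypes, with adjusted p from 0.147 (Socs1) to 0.438 (Irf1) across both lines.

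**Figure D3:**
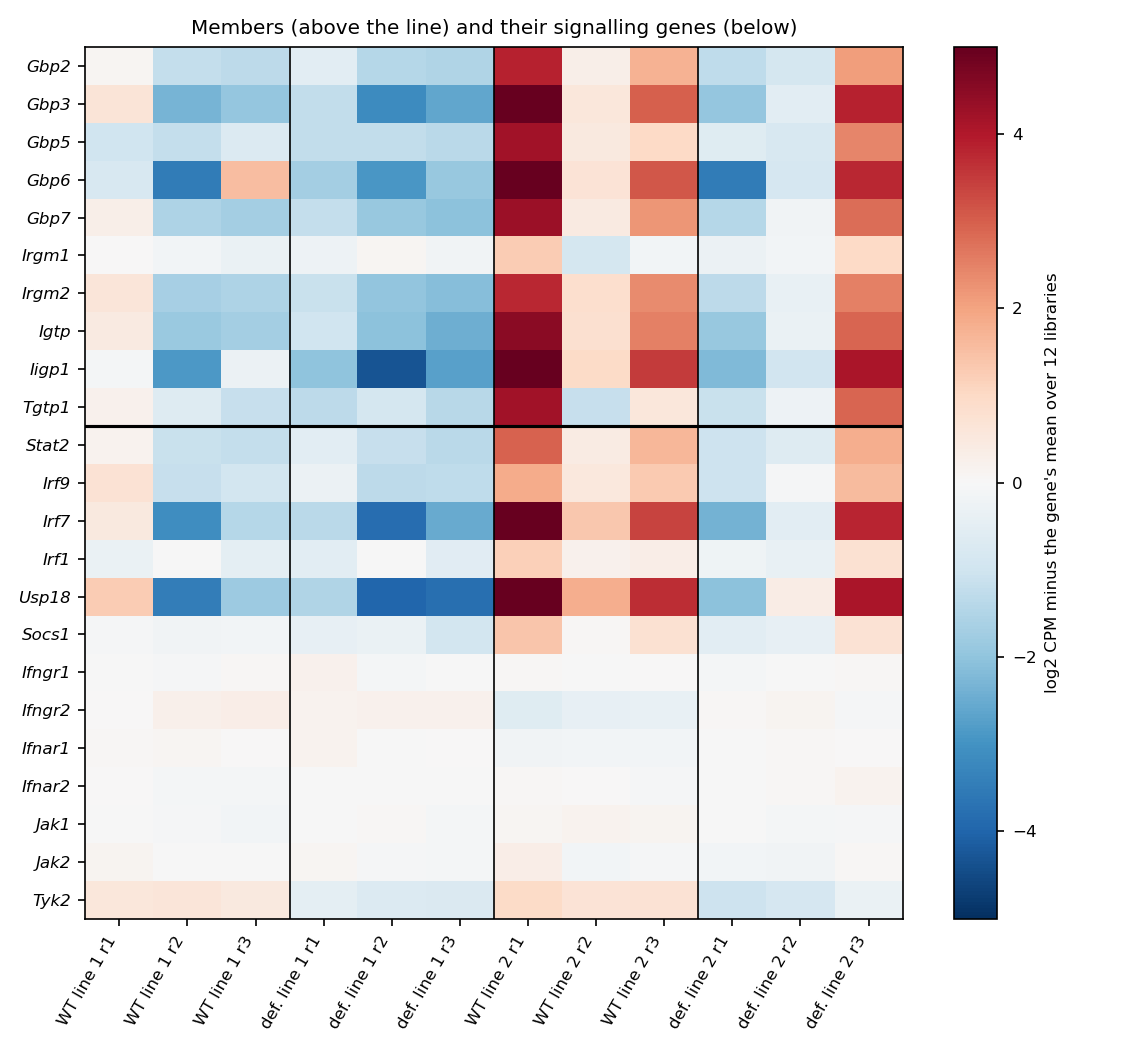
Log2 CPM minus each gene's mean over the 12 libraries (def., RTF2-deficient; r, replicate; colours end at 5 in either direction), with the 10 members above the line and transcription factors, inhibitors, receptors and kinases below it. Stat2, Irf7, Irf9 and Usp18 are high in the same columns as the members. Receptors and Jak kinases are nearly flat on this colour scale, and Tyk2 is low in RTF2-deficient columns.

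Mean levels of the members were lower in RTF2-deficient MEFs, but no member passed the test. Across both lines the log2 fold change, RTF2-deficient over WT, was below 0 for 10 of 10 genes, with a median of -1.37 and a range of -2.8 (Iigp1) to -0.01 (Irgm1), against a median of 0 over all tested genes. In edgeR's quasi-likelihood test 0 of 10 were called, a call being an adjusted p below 0.05 with a change of over 1 on the log2 scale in either direction, against 1.72% of all tested genes, and 1 (Iigp1) had an unadjusted p under 0.05. DESeq2 also called 0. So did limma's voom with groups treated as random blocks, with 7 of the 10 at an unadjusted p under 0.05, a lowest adjusted p of 0.062 and 362 genes called in all. With the libraries of each group summed 7 also had an unadjusted p under 0.05, and 0 genes were called. The directions of the 10 genes are not independent, since they follow the same few libraries.

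The largest differences were those of Iigp1, with 32.4 CPM on average in the 6 WT libraries and 4.24 in the 6 RTF2-deficient ones (log2 fold change -2.8, SE 1.27, adjusted p = 0.17 in edgeR's test), and of Gbp6 (-2.59, SE 1.27, adjusted p = 0.204). Gbp3 followed with -1.79 (SE 1.05), Igtp with -1.49 (SE 0.835), Irgm2 with -1.4 (SE 0.699) and Gbp7 with -1.35 (SE 0.77). Gbp5 gave -1.26 (SE 0.806), Gbp2 -1.15 (SE 0.714) and Tgtp1 -0.99 (SE 0.847). Irgm1 had 295 CPM in WT and 290 in RTF2-deficient libraries, and its 95% interval of -0.64 to 0.62 on the log2 scale lies within the fold threshold for a call.

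Within line 1 the log2 fold change was below 0 for 9 of 10 members, with a median of -1.04, and 0 of 10 were called against 0.918% of all genes, with 0 at an unadjusted p under 0.05 and 0 by DESeq2. Gbp6 (-2.84, SE 2.5) and Iigp1 (-2.32, SE 2.5) had the largest differences and Irgm1 (0.05, SE 0.473) was the one above 0. Without WT line 1 replicate 1, the values of Gbp2 (0.19), Gbp3 (0.03), Igtp (0.08), Gbp7 (-0.04) and Irgm2 (-0.03) lay near 0, and without WT line 1 replicate 3 Gbp6 had -0.7. The replicate numbers were taken to pair the libraries of line 1, from correlations in these same counts and not from a label. In 8 of the 10 members, all but Gbp6 and Irgm1, the RTF2-deficient library was the lower one of each of the 3 pairs, as in 28.4% of all tested genes. The members follow the same few libraries, so these are not 8 separate signs. With the replicate number as a block 0 members were called in line 1, and the lowest adjusted p was 0.688 in edgeR's test. The block term was shared by all 12 libraries, RTF2-deficient line 2 included, where the numbers mark no pairing. It is therefore not a paired test of line 1 alone.

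Within line 2 all 10 were below 0, with a median of -1.79, and again 0 of 10 were called against 3.78% of all genes, with 0 at an unadjusted p under 0.05 and 0 by DESeq2. In line 2 Gbp2 averaged 118 ± 131 CPM (SD, n = 3) in WT and 33 ± 41.5 in RTF2-deficient MEFs, so the spread between sister libraries was as large as the means. Of the 5 macrophage markers tested 1, Cd68, was also called lower in RTF2-deficient line 2 (log2 fold change -1.07, adjusted p = 0.00809), at 3.21 against 6.72 CPM. The other 4 were not called, with log2 fold changes of 0.76 for Csf1r, 0.43 for Lyz2, -0.12 for Cd14 and -0.51 for Itgam, and the part of macrophages in the members' levels was not tested.

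The line 2 difference depended on 1 library of each genotype. Without RTF2-deficient line 2 replicate 3, 8 of 10 members were called lower in line 2, all but Irgm1 and Tgtp1, with Iigp1 at -7.04 (adjusted p = 0.0264 in edgeR's test) and Gbp3 at -5.38 (adjusted p = 0.0433). The calls over all genes rose as well, from 539 to 888. Without WT line 2 replicate 1 none was called and Gbp3 (0.1), Gbp5 (0.39), Irgm1 (0.77) and Tgtp1 (1.63) turned to values above 0, with adjusted p of 0.199 to 0.978. Across both lines, leaving out RTF2-deficient line 2 replicate 3 gave 1 call, Iigp1 at -5.76 (adjusted p = 0.042), with 277 rather than 246 calls over all genes. Without WT line 2 replicate 1, Gbp5 (0.05), Tgtp1 (0.27) and Irgm1 (0.37) were above 0 across both lines, Gbp2 had -0.4 and Iigp1 -1.01, and 0 were called. The difference of the genotype effect between the lines, line 2 minus line 1, was not called for any of the 10 (1.05% of all genes were), with 0 at an unadjusted p under 0.05, 0 by DESeq2 and values from -1.4 for Gbp2 to 0.34 for Gbp6.

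WT line 2 had higher mean levels of the members than WT line 1, and 2 of them were called. In WT line 2 against WT line 1 all 10 had a log2 fold change above 0, with a median of 3.88 against 0.02 over all genes, and 2 of 10 were called higher against 3.89% of all genes. These were Gbp5, with 4.48 ± 6 CPM in line 2 and 0.274 ± 0.0583 in line 1 (SD, n = 3; log2 fold change 4.02, SE 1.17, adjusted p = 0.0428 in edgeR's test), and Iigp1, with 63.8 ± 94.5 and 0.857 ± 0.619 CPM (log2 fold change 6.21, SE 1.86, adjusted p = 0.0482). Gbp5 and Gbp6 passed the filter on low counts only through line 2 libraries, the line in which Gbp5 was called higher. Gbp5 had 9 to 14 counts in WT line 1. Gbp7 (3.79, SE 1.19), Gbp2 (3.3, SE 1.04), Igtp (3.98, SE 1.29), Irgm2 (3.24, SE 1.07) and Gbp3 (4.88, SE 1.67) had adjusted p of 0.0585 to 0.0775. Gbp6 had 4.58 (SE 1.78), Tgtp1 3.17 (SE 1.31) and Irgm1 0.52 (SE 0.474). All 3 WT line 2 libraries lay above all 3 WT line 1 libraries in 6 members (Gbp2, Gbp5, Gbp7, Irgm2, Igtp and Iigp1), a pattern seen in 15.1% of all genes.

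Both calls were near the threshold and depended on single libraries. In edgeR's test without WT line 2 replicate 1 no member was called, and Gbp5 had a log2 fold change of 1.87 (adjusted p = 0.238) and Iigp1 of 3.43 (adjusted p = 0.212). Of the 10 members 1 then had an unadjusted p under 0.05, against 9 with all libraries. Over all alternatives run, Irgm1 ranged from -0.33 to 0.89 and Tgtp1 from 0.34 to 3.72. Leaving out any 1 of the 3 WT line 1 libraries or of the 3 RTF2-deficient line 1 libraries, which enter through the shared estimate of spread, also left 0 calls, with adjusted p of 0.0564 to 0.153 for these 2 genes. Without WT line 2 replicate 3 Gbp5 alone was called. Without WT line 2 replicate 2, 7 members were called, the same number as when RTF2-deficient line 2 replicate 3 was omitted, and without RTF2-deficient line 2 replicate 1, 4 were. The calls over all genes, in either direction, were 1091, 1066 and 972 in these 3 fits, against 964 with all libraries. DESeq2 on all libraries called 7 members and 1120 genes in all. Same-numbered WT libraries of the 2 lines deviated together. With the replicate number as a block 1 member was called, Iigp1 (adjusted p = 0.0374 in edgeR's test), while Gbp5 was not (log2 fold change 3.68, adjusted p = 0.0704). This block, too, was shared with RTF2-deficient line 2, where the numbers mark no pairing.

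Between the RTF2-deficient groups of the 2 lines, whose embryos were of the same sex by Xist and Ddx3y, all 10 members again had a log2 fold change above 0 in line 2, with a median of 3 and a range of 0.41 (Irgm1) to 5.6 (Iigp1). In edgeR's test 0 of 10 were called against 1.28% of all genes, while 6 had an unadjusted p under 0.05. DESeq2 called 2 members and 334 genes in all, against 183 by edgeR. Gbp5, which passed the filter only through line 2 libraries, was the one member without overlap, 0.308 to 3.3 CPM against 0.195 to 0.221. This was a pattern of 9.77% of all genes. The means rested on RTF2-deficient line 2 replicate 3, for example 24 CPM of Iigp1 against 0.265 and 0.693 CPM in its sister libraries.

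**Figure D4:**
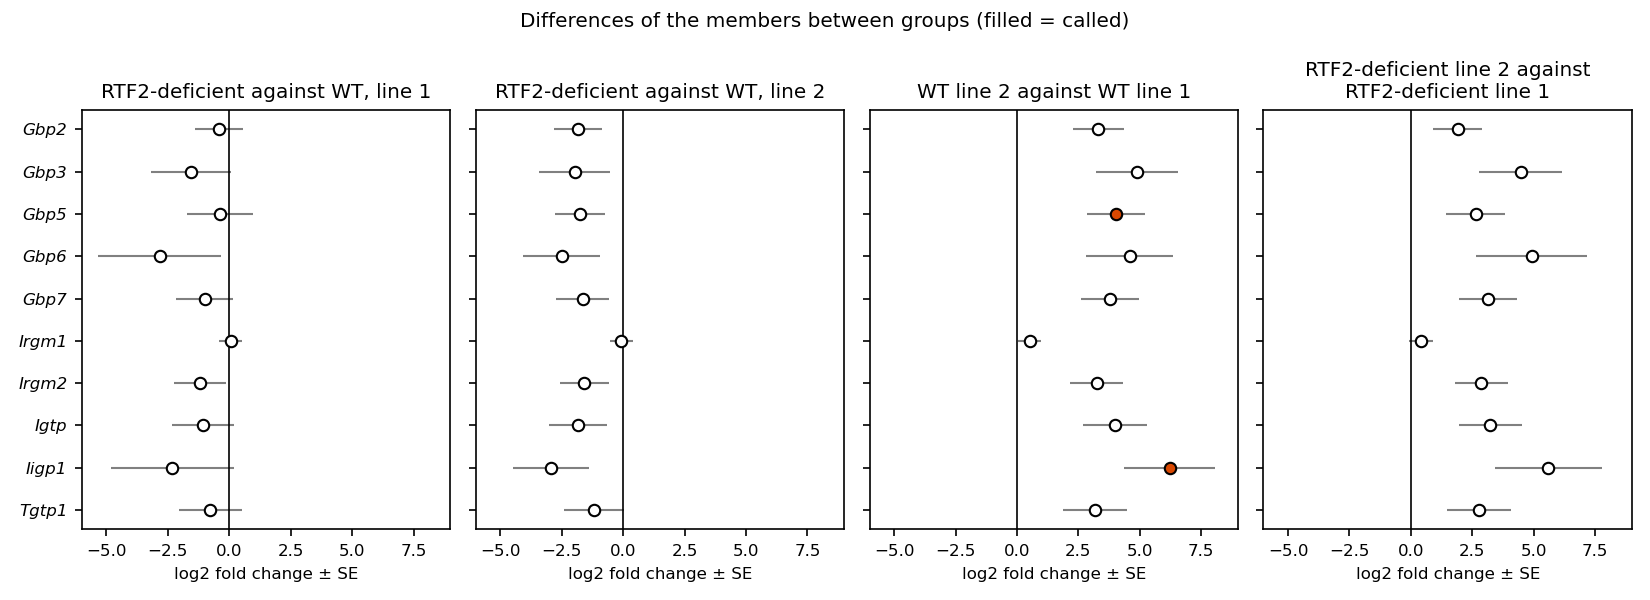
Log2 fold change ± SE of the 10 genes in 4 comparisons, from edgeR's fit of the 12 libraries; filled points passed an adjusted p of 0.05 and a log2 fold change of 1. The 2 filled points are Gbp5 and Iigp1 in WT line 2 against WT line 1, and Irgm1 lies nearest to 0 in every panel.

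Of the 20 other GBP, IRG and related GTPase genes listed, 14 passed the filter, and 0 were called between genotypes across both lines, with a median log2 fold change of -0.29. In WT line 2 against WT line 1, 3 of the 14 were called higher, against 3.89% of all genes. These were Gm12250 (Irgb10; mean of 0.105 CPM in line 1 and 3.9 in line 2, log2 fold change 5.18, adjusted p = 0.0421 in edgeR's test), Gm4951 (0.105 and 5.47 CPM, 5.67, adjusted p = 0.0323) and the large GTPase gene Gvin1 (14 and 133 CPM, 3.24, adjusted p = 0.0131). Gm12250 and Gm4951 had at most 0.124 and 0.217 CPM in WT line 1 and passed the filter only through line 2 libraries, where they were high. Gvin1 differed from the members in line 1, where the 3 RTF2-deficient libraries (28 to 40.2 CPM) lay above the 3 WT libraries (9.96 to 20.9 CPM). This pattern was seen in 9.79% of all genes, and the log2 fold change of 1.21 was not called (adjusted p = 0.51 in edgeR's test). Gbp4, Gbp8, Gbp10 and Gbp2b had at most 5 counts in any library. The atlastins Atl2 and Atl3 and the constitutive family member Irgq had correlations of -0.707, 0.0775 and -0.76 with the mean of the 10 members.

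Few of the genes that work with the GTPases were called. Of 14 autophagy factors that place GBPs and IRGs on membranes, 0 were called between genotypes, and Trim21 alone was called in WT line 2 against WT line 1 (log2 fold change 2.54, adjusted p = 0.036 in edgeR's test). Of all tested genes 3.89% were called higher in that comparison, the share to set beside each such call below. Of 8 prenylation enzymes, which attach the lipid anchor of some GBPs, 0 were called in either. Of 8 inflammasome partners 4 were tested. Pycard, which had few counts in line 1 and passed the filter only through line 2 libraries, was called higher in WT line 2 (3.1, adjusted p = 0.00165) at 0.714 against 0.081 CPM. All 4 were highest in WT line 2 replicate 1, with ranges of 0.627 to 10.4 CPM for Casp4, 3.46 to 20 for Gsdmd, 0.462 to 2.17 for Il18 and 0.0239 to 0.847 for Pycard, and their correlations with the mean of the members were 0.931, 0.849, 0.736 and 0.725. Of 22 type I interferon-stimulated genes such as Rsad2 and Ifit1, 0 were called between genotypes, with a median log2 fold change of -1.55, and 12 were called higher in WT line 2 against WT line 1, against 3.89% of all genes. Of 10 genes of MHC class I and peptide loading, 0 were called between genotypes and 6 were called higher in WT line 2. Cxcl1, a chemokine and the one NF-kB target called between genotypes, fell in RTF2-deficient MEFs by 1.54 on the log2 scale (adjusted p = 0.00834), with overlapping values across the lines. Of the 5 macrophage markers tested 1, Cd68, was called higher in WT line 2 (2.01, adjusted p = 0.000159) and had a correlation of 0.834 with the mean of the members. The other 4 had log2 fold changes of -0.52 (Csf1r) to 1.53 (Lyz2) and correlations of -0.558 (Csf1r) to 0.684 (Cd14). Also called higher were 2 of the 4 epithelial markers tested, while 0 of 10 fibroblast markers were. The part of other cell types in the members' levels was not tested.

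Where the members lie on the chromosomes went with their level in WT line 2 replicate 2, the lowest of its group. Irgm1 and Tgtp1 belong to a block of chromosome 11 with Tgtp2, Ifi47, Gm12185, 9930111J21Rik1 and 9930111J21Rik2. In that library Irgm1 was at 0.593 and Tgtp1 at 0.688 of the WT line 1 median, and the block as a whole at 0.497 to 1.13. Of its 7 genes 4 were below every WT line 1 library and 0 above, with Tgtp1 barely below, at 4.37 against 4.41 CPM. In contrast, Igtp was at 5.76, Irgm2 at 5.26, Gbp3 at 5.71, Gbp7 at 4.09, Gbp5 at 3.19, Gbp6 at 3.11, Gbp2 at 2.84 and Iigp1 at 2.39 times the median. Of the 12 family genes in the other 4 blocks, 8 were above every WT line 1 library and 0 below, and the lowest, F830016B08Rik, was at 0.564 of the median. Of all tested genes 31.1% were below and 32.8% above. The blocks were chosen after these values were seen, reads are shared within them, and the difference between blocks was not tested.

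**Figure D5:**
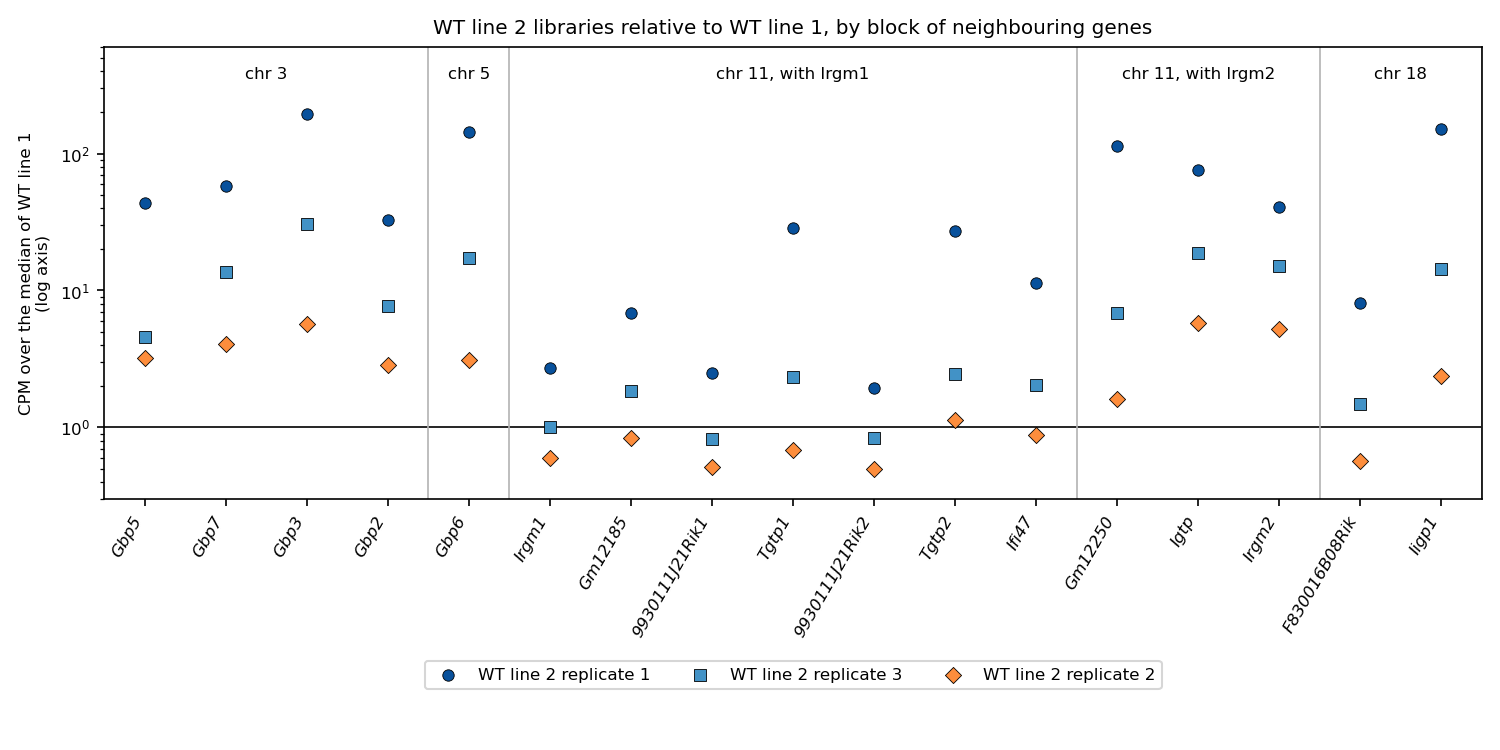
CPM in each WT line 2 library divided by the median of the WT line 1 libraries, on a log axis, for family genes grouped by block of neighbours; Gbp9 and Gm4951, whose WT line 1 median is below 0.0762 CPM, or 3 counts in the shallowest library, are not drawn. Replicate 2 (diamonds) lies at or below 1.13 throughout the block with Irgm1 and, in the other blocks, above 1 for 8 of 8 members and at 0.564 for F830016B08Rik.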

How the data were processed

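For 12 libraries of MEFs, the authors deposited whole-number read counts per Entrez gene, not normalized. The study's methods name Salmon, tximport and mm10 gene models for this step, whereas HTSeq and mm10 are named in the submitters' processing notes, so which tool made the counts is unsettled. No source used here gives poly(A) selection or strand.

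Symbols, positions and promoters came from RefSeq's GRCm38.p6 tables (24045 of 24100 identifiers matched), exon lengths and shared 75-base stretches from GENCODE M21. In R 4.3.3, edgeR 4.0.16 was the main tool, with limma 3.58.1 and DESeq2 1.42.0 as alternatives. After filterByExpr (4 groups) and TMM scaling, glmQLFTest was run on a model of line plus genotype, or on contrasts of the 4 groups. An SE is the unshrunken coefficient's size over the square root of F, and the 95% interval is a normal one. Adjusted p-values are Benjamini-Hochberg values over all tested genes. Log2 CPM used a prior count of 2.

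The genes named are the 10 members, Rtf2, listed family, ligand and signalling genes, list genes called between genotypes, and the 8 genes most correlated with the members. Names outside that rule (Irf7, Ifnar1, Ifnar2, Pias1, Ptpn11, Trim21, Pycard, Casp4, Gsdmd, Il18, Cd14, Cd68, Csf1r, Itgam, Lyz2, Rsad2, Ifit1, Xist, Ddx3y, and Gm43302 and Gm43802 for shared reads) were chosen after values were seen. One listed signalling gene is not reported here. The members, lists and tests were chosen with earlier results of these data known. On simulated counts of 14122 genes the genotype test recovered 90.8% of 98 genes changed by 1.5 on the log2 scale and 100% of 97 changed by 3, and in line 2, on 14125 genes, 78.8% and 94.9%. These shares are over genes of all spreads, and most members vary more than nearly all genes. Whether replicate numbers pair libraries was checked by correlating same-numbered libraries' deviations from their group means. The 3 correlations were 0.43 or more in line 1 and 0.426, 0.415 and 0.305 between the WT groups, so the numbers were taken to pair these, from the data alone. They were -0.587, 0.17 and -0.279 in line 2 and -0.381, 0.0867 and -0.309 between the RTF2-deficient groups, which they do not pair. In line 2 the highest correlation of each WT library was with a library of another number. It was 0.654 for WT replicate 1 with RTF2-deficient replicate 3, 0.612 for 2 with 1 and 0.367 for 3 with 2. No comparison was run on these matches. Alternatives were another normalization, other filters, other tools, a replicate block, summed libraries and each library left out.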

Additional observations from a re-analysis of the deposited data

Results flagged for a closer look

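In each genotype the 6 libraries of the 2 lines were searched for a library far from the others, by the gap in CPM to its nearest neighbour as a share of the whole range, and 20 of 20 sets had one. Chance gives about 1 in 20 for normally distributed values, which skewed CPM pooled over 2 unlike lines are not. In the WT libraries it was WT line 2 replicate 1 for all 10 genes, with a share of 0.788 for Gbp2, 0.844 for Gbp3, 0.912 for Gbp5, 0.878 for Gbp6, 0.776 for Gbp7, 0.753 for Irgm1, 0.641 for Irgm2, 0.76 for Igtp, 0.907 for Iigp1 and 0.941 for Tgtp1. In the RTF2-deficient libraries it was RTF2-deficient line 2 replicate 3 for all 10, with 0.914 for Gbp2, 0.959 for Gbp3, 0.947 for Gbp5, 0.965 for Gbp6, 0.905 for Gbp7, 0.79 for Irgm1, 0.903 for Irgm2, 0.918 for Igtp, 0.972 for Iigp1 and 0.938 for Tgtp1. On log2 CPM, a scale added after these values were seen, 1 of the 10 WT sets (Tgtp1) and 7 of the 10 RTF2-deficient sets had such a library, with shares of 0.26 to 0.674 and 0.599 to 0.802. The 10 genes move together, so these are not 20 separate signs. The 6 libraries of a genotype include both lines, and in WT they include both sexes. The cause was not tested.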

How the results depend on the processing

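Of the 6 comparisons, RLE size factors and the removal of the count filter changed no count of called members, and no called value changed sign in any alternative that was run. Gbp5 and Gbp6 did not pass a filter of 1 CPM in 6 libraries and have no value under it. DESeq2 called 7 members in WT line 2 against WT line 1 and 2 in RTF2-deficient line 2 against RTF2-deficient line 1, where edgeR called 2 and 0, and the cause was not tested. With single libraries left out, the members called ranged from 0 to 7 in WT line 2 against WT line 1, from 0 to 8 for genotype in line 2 and from 0 to 1 for genotype across both lines. With the replicate block, 1 member (Iigp1) rather than 2 was called in WT line 2 against WT line 1, all genes called across genotypes went from 246 to 227, and no other count of called members changed. In line 2 and between the RTF2-deficient groups, the numbers mark no pairing. The libraries of a group are technical replicates, and the 2 lines are the only replicates of embryos. In line 1, Gbp5, Gbp6 and Iigp1 rested on few counts, which limits their fold changes.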
